A study of Mus musculus with 47 samples.

Results

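The mitochondrial ribosomal protein genes were followed in B78-D14 melanoma cells and in the tumors they formed. They were taken as the protein-coding genes of the count table whose mouse symbol begins with Mrpl or Mrps and a digit, which gave 78 of 56748 genes. By name, 49 belong to the large subunit and 29 to the small subunit, and the 6 processed pseudogenes with the same prefix were left out. B78-D14 is an amelanotic, Cdkn2a-/- mouse line of the B16 lineage. It had been edited with DdCBE base editors at 2 sites of Mt-Nd5, the mtDNA gene for a complex I subunit, to give m.11,944G>A or m.12,436G>A in a share of the mtDNA copies (the heteroplasmy). Cells in culture were m.11,944 60% cells and unedited control cells (labelled WT), with 4 cultures each and no treatment. Tumors were untreated fragments of subcutaneous allografts in immunocompetent male C57BL/6 mice, with 7 m.12,436 60%, 7 m.12,436 40% and 4 control tumors. The mice were injected at about 8 weeks of age by the study's methods, while its reporting summary gives an older range. Edited lines were sorted transfected populations, so that each genotype rests on 1 population, and the tumor fragments hold host cells as well as melanoma cells. The cultures carried one mutation and the tumors the other, so an effect of culture against tumor and an effect of the mutated site cannot be told apart between them.

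The mitochondrial ribosome translates the mRNAs of mtDNA, all of them for subunits of the respiratory chain and ATP synthase. Its rRNAs are encoded in mtDNA, while every one of its proteins is made from nuclear genes, translated in the cytosol and imported. Some of the proteins have a counterpart in the bacterial ribosome and others arose in mitochondria, and loss of some of them causes combined oxidative phosphorylation deficiency in humans. Names do not always follow the structure, since Mrps30 and Mrps18a are placed in the large subunit in structures of the mammalian ribosome, and Mrps36 is now regarded as a subunit of the 2-oxoglutarate dehydrogenase complex.

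Between 16475735 and 36173502 reads per library were counted on genes. Pigment genes were low, as in an amelanotic line. The summed level of 7 melanocyte lineage markers was at most 23.3 CPM in the cultures, where Tyr was at 0, and at most 66.2 CPM in the tumors. CPM are counts scaled to a common library size, TMM included, here separately for cultures and for tumors. The summed level of 8 leukocyte markers was at most 1.57 CPM in the cultures and 721 to 1503 CPM in the tumors. All 78 genes had enough counts to be tested in every comparison, and only Mrpl53 was near the limit, with 15 to 53 reads per library.

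The genes lie on 17 chromosomes. Exons of 43 of them overlap exons of another gene of the table, on the opposite strand in 40, and in 11 the overlap covers over 25% of the exonic bases. Whether the counting used the strand is not given in the sources used here, so reads of such pairs may not be fully separated. In the 300 bases from 250 before to 50 after the annotated start, both strands were searched for 5 motifs. The letters CCGGAAG, the core that GABPA and other ETS factors bind, were found in 24 members (30.8%) and in 10.3% of 21617 protein-coding genes. All members had enough counts to be tested here, whereas the 21617 genes include many that had too few. The NRF1 letters, GCGCA and GCGC with any single base between them, were found in 15.4% of members and 5.81% of all, and the YY1 letters AAGATGGC in 7.69% and 2.47%. The SP1 letters GGGCGG (42.3% and 42.6%) and the E-box CACGTG (6.41% and 7.86%) were about as common in both. A protein-coding gene on the other strand started within 1000 bases upstream of 14 members (17.9%) and of 5.06% of all genes. One such pair is made of 2 members, Mrpl46 and Mrps11, whose starts lie 30 bases apart, and Mrps12 starts 129 bases from Sars2, the mitochondrial seryl-tRNA synthetase gene.

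The upstream sequences of 3 of the 4 members called in a comparison of edited with control samples are given from GRCm39, 5′ to 3′ on the strand of the gene and ending at the base before the start, with matches to any of the 5 motifs in capitals. That of Mrps6 is chr16:91854715-91854964 on the + strand, that of Mrpl38 is chr11:116029701-116029950 on the − strand, and that of Mrpl34 is chr8:71917305-71917554 on the + strand. None is shown for the fourth, Mrpl43, because another of its annotated transcripts covers the bases before the start used here (44994881).
Mrps6: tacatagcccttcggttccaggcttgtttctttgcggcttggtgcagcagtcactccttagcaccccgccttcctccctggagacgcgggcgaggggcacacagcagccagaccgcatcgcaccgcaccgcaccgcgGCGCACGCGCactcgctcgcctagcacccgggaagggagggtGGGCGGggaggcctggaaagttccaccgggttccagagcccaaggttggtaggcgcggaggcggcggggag
Mrpl38: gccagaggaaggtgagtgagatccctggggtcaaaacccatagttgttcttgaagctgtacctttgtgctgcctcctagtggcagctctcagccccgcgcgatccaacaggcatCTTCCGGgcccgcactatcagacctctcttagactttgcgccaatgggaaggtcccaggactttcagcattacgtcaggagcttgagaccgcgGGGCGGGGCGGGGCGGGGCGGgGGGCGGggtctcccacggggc
Mrpl34: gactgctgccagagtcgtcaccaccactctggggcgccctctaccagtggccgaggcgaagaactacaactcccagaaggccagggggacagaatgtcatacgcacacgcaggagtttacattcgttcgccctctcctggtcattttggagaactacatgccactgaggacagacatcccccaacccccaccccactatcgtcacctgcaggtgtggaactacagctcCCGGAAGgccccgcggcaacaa
Mrps6 carries an NRF1 and an SP1 match, Mrpl38 a GABPA match and a run of SP1 matches, and Mrpl34 a GABPA match, as does the window of Mrpl43. The matches describe the letters only.

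Together the 78 genes took 0.401% to 0.432% of all counts in control cells and 0.388% to 0.414% in m.11,944 60% cells. In control tumors the share was 0.258% to 0.303%, in m.12,436 40% tumors 0.256% to 0.323% and in m.12,436 60% tumors 0.251% to 0.272%. Every tumor therefore lay below every culture, while the groups within cultures and within tumors overlapped. Counts on the 13 mtDNA-encoded mRNAs, the templates of this ribosome, moved the other way, from 0.269% to 0.770% in the cultures to 0.919% to 1.48% in the tumors. The ratio of large-subunit to small-subunit counts was 1.90 to 2.03 in the cultures and 2.07 to 2.18 in the tumors, again without overlap.

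**Figure D1:**
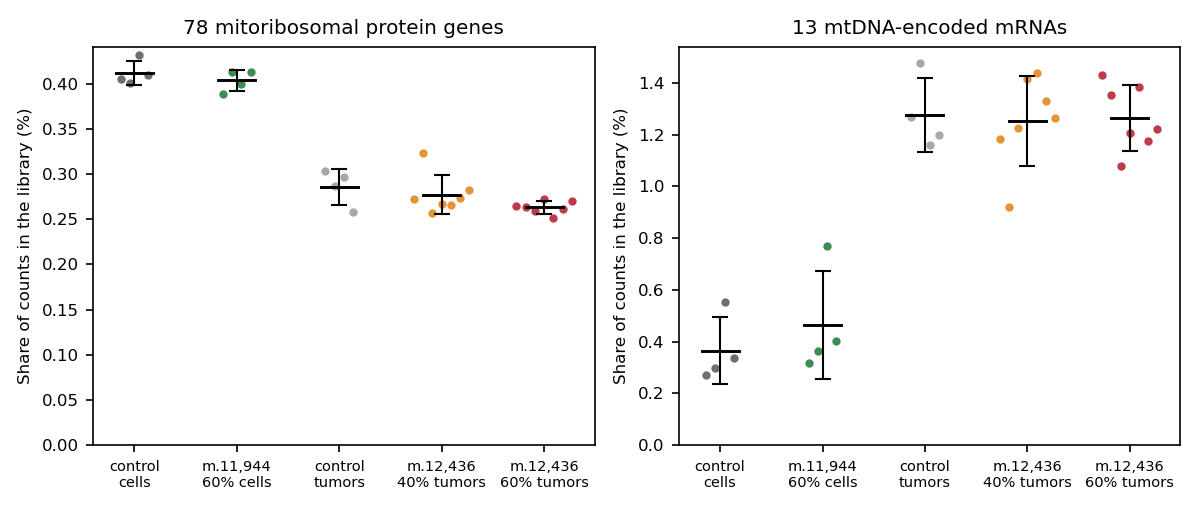
Share of each library's counts (%) on the 78 mitochondrial ribosomal protein genes (left) and on the 13 mtDNA-encoded mRNAs (right). Points are samples, horizontal lines group means and bars 1 SD (n = 4, 4, 4, 7 and 7). The 8 cultures sit between 0.388% and 0.432% on the left and all 18 tumors between 0.251% and 0.323%, while on the right the tumors lie above the cultures.

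Per length of transcript, the members ranged in control cells from 1.38 to 121 RPKM (CPM per kilobase) with a median of 26.6 RPKM. Mrpl13, a protein shared with bacteria, was highest at 121 RPKM, followed by Mrps6 at 118 RPKM and Mrpl42, which has no bacterial counterpart, at 117 RPKM. In CPM, Mrpl42 was at 64.1 to 122 in the 4 control cultures, so the order of these leaders was within their spread. The lowest were Mrpl48 at 6.52 RPKM, Mrps25 at 4.47 RPKM and Mrpl53 at 1.38 RPKM. Mrps25 has the longest transcript model of the group, and 69.5% of its exonic bases overlap Nr2c2 on the opposite strand. In all 3 tumor groups Mrpl42 was first, with 88.1 to 98.7 RPKM, and Mrpl53 and Mrps25 were again lowest. By RPKM, Mrps6 held rank 2 of 78 in control cells, rank 7 in m.11,944 60% cells and ranks 11 to 14 in the tumor groups.

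The comparison of m.11,944 60% with control cells asks what the edit changes in cells alone. No member passed the threshold of an adjusted p under 0.1 in edgeR's quasi-likelihood test, where 5 of 12930 genes did (0.0387%), and DESeq2 called 1 member, Mrps6, among 84 genes. Of the 78 genes, 58 were lower and 20 higher, with a median log2 fold change of −0.05 against 0.00 for all genes tested, and the groups did not overlap in 5 members, all lower (against 1.86% of all genes lower without overlap). At an unadjusted p under 0.05, 1 member was lower and 0 were higher, against 2.27% of all genes lower and 1.85% higher. The same-numbered cultures of both lines deviated together, and with the culture number as a block 919 genes passed (7.11%). Among them were 2 members, both lower (4.09% of all genes were lower at this threshold), namely Mrps6 and Mrpl38, and 11 members, all lower, had an unadjusted p under 0.05 (11% of all genes were lower by this rule).

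Mrps6 (ENSMUSG00000039680, chromosome 16, 91854965 to 91909592) encodes the small-subunit protein that corresponds to bacterial S6. It was at 122, 119, 133 and 117 CPM in control cultures 1 to 4 and at 68.7, 76.1, 95.2 and 93.5 CPM in m.11,944 60% cultures 1 to 4. All 4 edited cultures were below all 4 control cultures, with means of 83.4 ± 13.02 and 123 ± 7.28 CPM (SD, n = 4 each). The log2 fold change was −0.56 (standard error, SE, 0.13, edgeR adjusted p = 0.602) without the block and −0.57 (SE 0.08, edgeR adjusted p = 0.0119) with it. Its exons share 31.5% of their bases with Slc5a3, the myo-inositol transporter gene, and Gm49711, both on the same strand, so the counts of these genes may not be fully separated. Slc5a3 itself was at 123 ± 35.6 CPM in m.11,944 60% cells and 190 ± 48.1 CPM in control cells. Its log2 fold change was −0.63 without the block (edgeR adjusted p = 1) and −0.63 with it (SE 0.08, edgeR adjusted p = 0.00617), so Slc5a3 was also called lower with the block. The 401 genes tested on chromosome 16 had a median log2 fold change of −0.14 in this comparison, against 0.00 for all genes, and the share of a chromosome-wide shift in the Mrps6 value was not tested.

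Mrpl38 (ENSMUSG00000020775, chromosome 11, 116022641 to 116029700) encodes a large-subunit protein without a bacterial counterpart. It was at 168, 159, 108 and 101 CPM in control cultures 1 to 4 and at 129, 129, 85.2 and 98.5 CPM in m.11,944 60% cultures 1 to 4. The groups overlapped, because cultures 1 and 2 stood above cultures 3 and 4 in both lines, and within each number the edited culture was the lower one. The log2 fold change was −0.27 (SE 0.07, edgeR adjusted p = 0.0834) with the block, and without the block the adjusted p was 1. The other members with small p without the block were Mrpl9 (80.4 ± 3.06 against 93.0 ± 8.26 CPM) and Mrpl36 (24.98 ± 0.639 against 28.3 ± 0.976 CPM, no overlap), both of the large subunit and shared with bacteria, each with an adjusted p of 1 from edgeR's test.

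**Figure D2:**
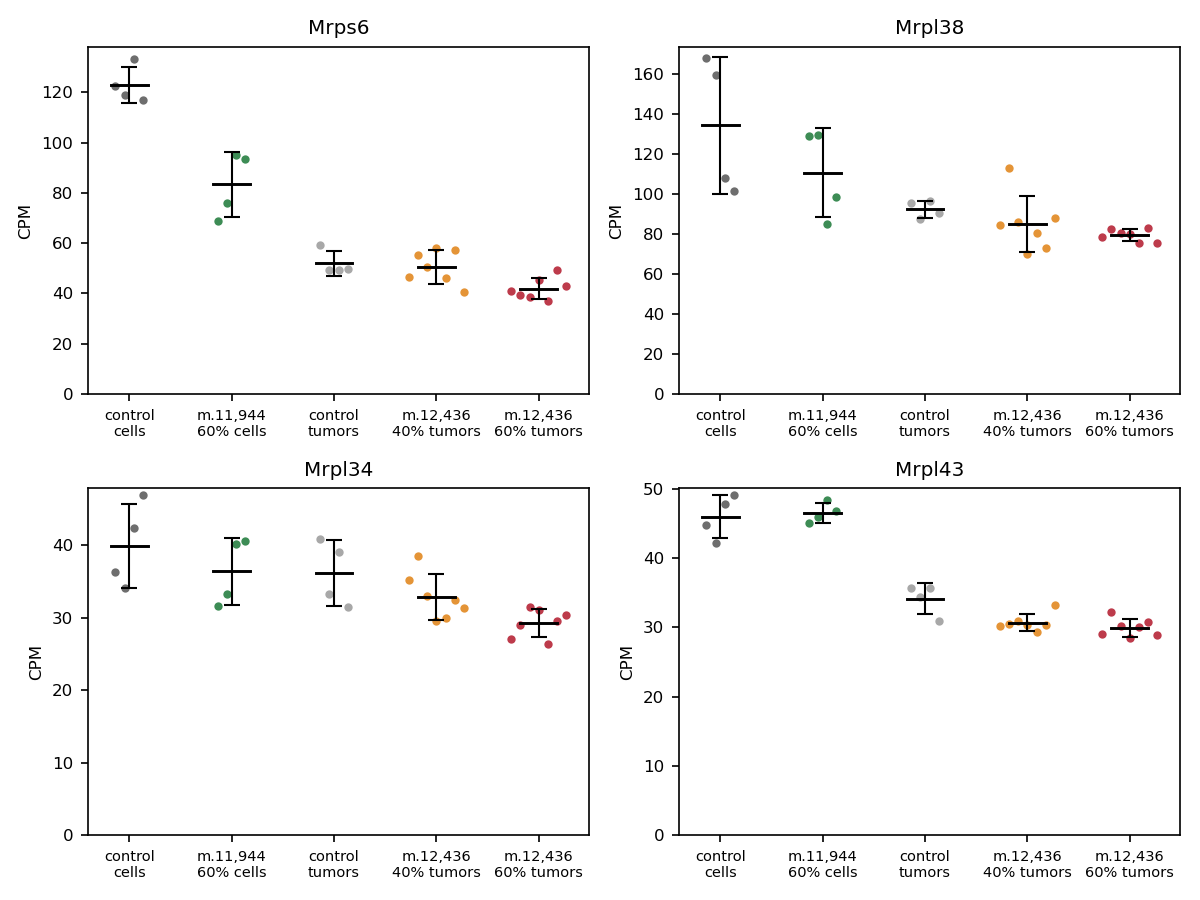
CPM of Mrps6, Mrpl38, Mrpl34 and Mrpl43 in every sample of the 5 groups, with group means (lines) and 1 SD (bars). Cultures and tumors were scaled separately, so levels are to be compared within cultures or within tumors. Mrps6 is lower in all 4 m.11,944 60% cultures than in all 4 control cultures, and Mrpl38 falls into 2 levels within each line, cultures 1 and 2 above cultures 3 and 4.

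The m.12,436 60% tumors were compared with control tumors to ask what the second site changes in a tumor. Members were lower in 70 cases and higher in 8, with a median log2 fold change of −0.11, against 0.00 for all genes tested and 49.4% of them higher. In edgeR's test 374 of 16213 genes passed the threshold (2.31%), among them 2 members, both lower (1.34% of all genes were lower). At an unadjusted p under 0.05, 15 members were lower and 0 higher, against 8.31% of all genes lower and 8% higher. The groups did not overlap in 5 members, all lower (against 2.66% of all genes), which were Mrps6, Mrpl34, Mrpl12, Mrpl38 and Mrpl22. In bulk tumor pieces, fewer melanoma cells and less RNA per cell cannot be told apart. Leukocyte markers moved with the comparison, at 905 to 1503 CPM in m.12,436 60% tumors and 721 to 998 CPM in control tumors over all 8 markers, none of which was at 0 in these tumors, and the summed level of 10 proliferation markers was 1304 to 1675 CPM against 1602 to 2017 CPM. With the leukocyte marker score as a covariate, 0 members and 20 genes passed the threshold, 68 members were lower and their median log2 fold change was −0.09. After subtracting the median of each gene's chromosome, 74 members were lower, with a median of −0.10.

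Mrpl34 (ENSMUSG00000034880, chromosome 8, 71917555 to 71918396) encodes the counterpart of the small bacterial protein L34. It was at 40.9, 33.3, 39.08 and 31.5 CPM in the control tumors and at 26.4, 29.5 and 31.4 CPM (lowest, median and highest of 7) in the m.12,436 60% tumors. The highest m.12,436 60% tumor was just below the lowest control tumor. The group means of 29.2 ± 1.95 (SD, n = 7) and 36.2 ± 4.52 CPM (SD, n = 4) gave a difference on the log2 scale of −0.31 (SE 0.08, edgeR adjusted p = 0.0767). On chromosome 8 the median log2 fold change over 860 genes was −0.07 and 5.93% of the genes were called lower, against 1.34% over all chromosomes, and the part of this in the Mrpl34 value was not tested.

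Mrpl43 (ENSMUSG00000025208, chromosome 19, 44988010 to 44995671) encodes a large-subunit protein that arose in mitochondria. It was at 35.6, 34.4, 35.7 and 30.9 CPM in the control tumors and at 28.5, 30.1 and 32.2 CPM (lowest, median and highest of 7) in the m.12,436 60% tumors. Control tumor 4 lay within the range of the edited tumors, and the other 3 were above it. The log2 fold change was −0.19 (SE 0.05, edgeR adjusted p = 0.0981). Exons of Mrpl43 overlap those of Twnk over 33.4% of their bases, and Twnk, the gene of the mtDNA helicase, was at 42.0 ± 1.83 and 48.0 ± 6.94 CPM (log2 fold change −0.19, edgeR adjusted p = 0.221).

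Mrps6 in the m.12,436 60% tumors was at 36.8, 41.0 and 49.2 CPM (lowest, median and highest of 7), and at 59.3, 49.3, 49.4 and 49.6 CPM in the control tumors. The highest edited tumor was only just below the lowest control tumor, and the log2 fold change of −0.31 (SE 0.10) had an adjusted p of 0.133 from edgeR's test. All 3 genes of the stalk that binds translation factors were lower, at −0.12 to −0.26 on the log2 scale, without passing the threshold. Of these Mrpl11 had the largest change (−0.26, edgeR adjusted p = 0.138). All 12 genes of human combined oxidative phosphorylation deficiency were lower, by −0.24 to 0.00, again without a call, and Mrpl12 was at the lower end. The 3 paralogs Mrps18a, Mrps18b and Mrps18c stood between −0.12 and 0.07, and Mrpl58, a peptide release protein built into the ribosome, was at −0.09. Medians were nearly equal for the large subunit (−0.11), the small subunit (−0.12), the 43 members with a bacterial counterpart (−0.10) and the 35 without (−0.12).

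The calls of Mrpl34 and Mrpl43 depended on single tumors. No member passed the threshold without control tumor 1 (0.76% of all genes did) or without control tumor 3 (0.402%). With all else kept, 2 members passed without control tumor 2 (4.36% of all genes) and 5 without control tumor 4 (4.39%). Without the second m.12,436 40% tumor 10 passed (6.05%). That tumor is in neither group compared and enters through the gene filter, the scaling and the shared estimate of spread. No member was called higher in any of these fits, and the median stayed between −0.14 and −0.08.

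**Figure D3:**
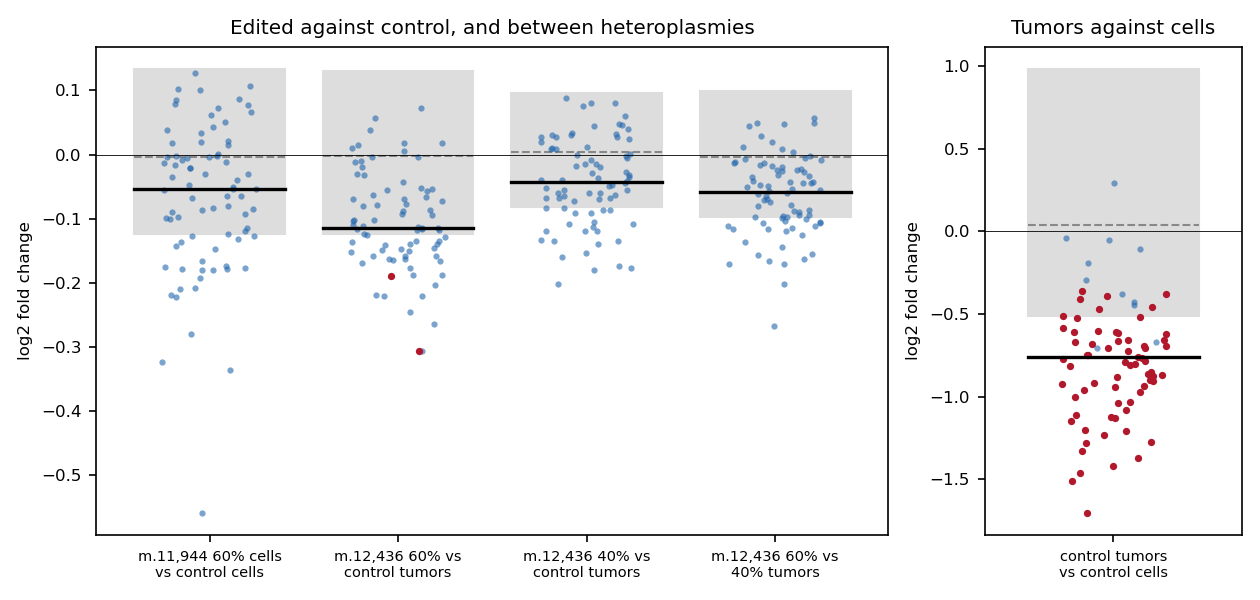
Log2 fold change (y axis) of each of the 78 members in the 5 comparisons (dots, red where the adjusted p was under 0.1), with their median as a black line. Grey boxes span the quartiles and dashed lines the median of all genes tested, and the right panel has its own scale. The members lie mostly below 0 in each comparison, with medians from −0.04 to −0.11 on the left and −0.76 on the right.

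Between m.12,436 40% tumors and the same control tumors, no gene of 16213 passed the threshold in edgeR's test (0%), DESeq2 called 5 genes and no member, limma-voom called 0, and before adjustment 825 genes (5.09%) of edgeR's test were under 0.05. Among the members, 55 were lower and 23 higher, with a median log2 fold change of −0.04 (all genes 0.00), and 5 members were lower at an unadjusted p under 0.05 against 2.85% of all genes. Those with the smallest p were Mrpl43 (30.7 ± 1.20 CPM, log2 fold change −0.15), Mrps24 (33.3 ± 2.94 CPM, −0.20) and Mrpl49 (55.5 ± 2.26 CPM, −0.13), each with an adjusted p of 0.924 from edgeR's test. Mrps24 encodes the counterpart of bacterial S3, and Mrpl49 a protein particular to mitochondria. Without control tumor 3 the log2 fold change of Mrps24 was −0.12, and without control tumor 1 that of Mrpl49 was −0.08. Without control tumor 3, 37 of the 78 members were lower and the median was 0.01, so the direction of this small shift depended on that tumor.

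The 2 heteroplasmies of m.12,436 were also compared with each other, and these values share no control samples. In edgeR's test 293 genes passed (1.81%), and no member was among them. DESeq2 called 744 genes (4.59%), with 1 member, Mrps6, among them. Members were lower at 60% in 68 cases and higher in 10, with a median log2 fold change of −0.06, and 6 were lower at an unadjusted p under 0.05 (against 7.12% of all genes lower). Mrps6 was at 40.4, 50.4 and 58.1 CPM (lowest, median and highest of 7) in the m.12,436 40% tumors, against 36.8, 41.0 and 49.2 CPM at 60%. These ranges overlapped, and the log2 fold change was −0.27 (SE 0.08, edgeR adjusted p = 0.135). On chromosome 16 the median over 500 genes was −0.07, and its part in the Mrps6 value was not tested. The next smallest p values were those of Mrpl20 (−0.17) and Mrpl19 (−0.20), both counterparts of bacterial proteins, and without the second m.12,436 40% tumor they were −0.13 and −0.12. That m.12,436 40% tumor stood above the rest of its group in members' counts, at 0.323% against 0.256% to 0.282% in the other 6. Without it the median was −0.02 and 50 members were lower, so the size of the shift between the heteroplasmies depended on that tumor.

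Other genes of mitochondrial translation were read from the same fits for the m.12,436 60% tumors. Of 5 ribosome subunits that carry other names, 2 were called lower, Gadd45gip1 (log2 fold change −0.32, edgeR adjusted p = 0.0251) and Aurkaip1 (−0.23, edgeR adjusted p = 0.0928), and all 5 were below 0. No gene was called among 25 assembly and rRNA maturation factors (median −0.04), 16 translation factors (median −0.08), 22 genes of mitochondrial aminoacyl-tRNA synthesis (median −0.11) or the 13 mtDNA-encoded mRNAs (median −0.05). Of 37 nuclear complex I subunits, 2 were called lower, Ndufs8 (−0.27) and Ndufv1 (−0.23), with a median of −0.09. None of 79 cytosolic ribosomal proteins was called, with a median of −0.07 and 73 of them lower.

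**Figure D4:**
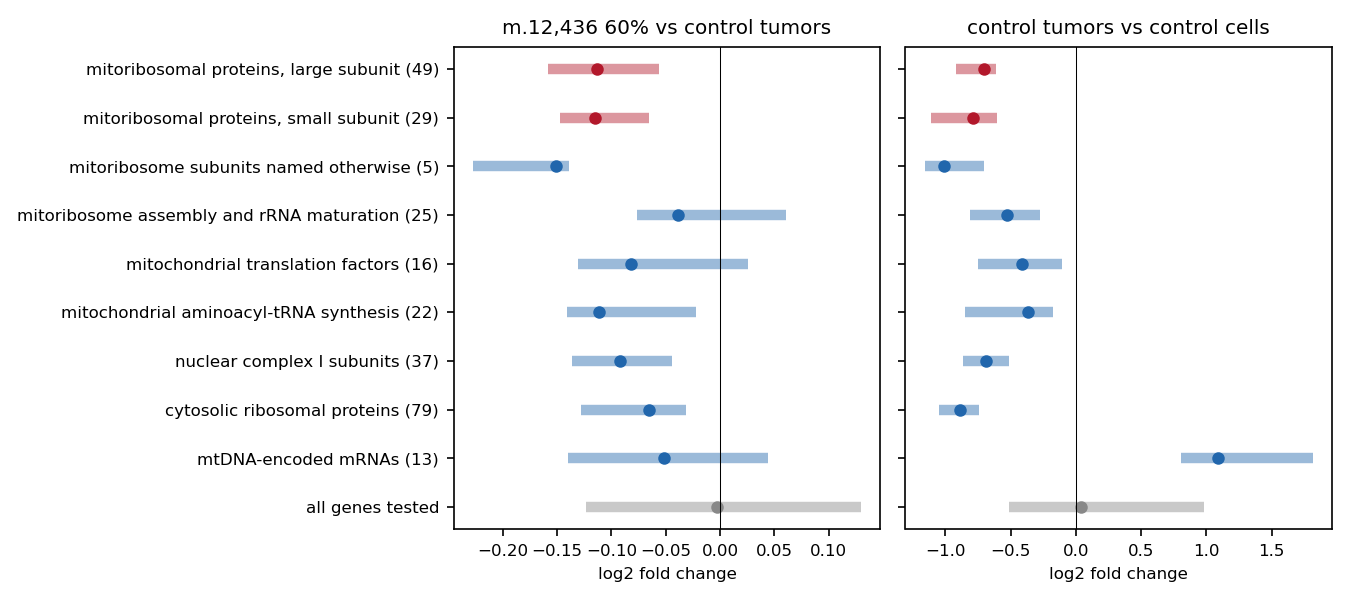
Median (dot) and quartiles (bar) of the log2 fold change for each gene list, in m.12,436 60% against control tumors (left) and control tumors against control cells (right), with the number of genes tested in parentheses and separate x axes. Both subunits of the mitochondrial ribosome are near −0.11 on the left and between −0.71 and −0.79 on the right, where the mtDNA-encoded mRNAs are at 1.09.

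Control tumors were compared with control cells to see how the ribosome genes differ between a tumor and the cultured cells it grew from, with both groups scaled together. In edgeR's test 9806 of 15047 genes passed (65.2%), 29.9% lower and 35.3% higher. Of the members, 67 were called lower and 0 higher and 77 of 78 were below 0, with a median log2 fold change of −0.76 against 0.04 for all genes. The groups did not overlap in 62 members, all lower (24.4% of all genes were lower without overlap). As given earlier, the tumors hold leukocyte RNA. Scaled separately, 5 fibroblast markers summed to 2830 to 4812 CPM in control tumors and at most 21.8 CPM in control cells. Likewise, 10 proliferation markers summed to 1602 to 2017 and 2065 to 3629 CPM, so these sums are not on the common scale of this comparison. The part of leukocyte, fibroblast and proliferation differences in the members' values was not tested.

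Mrpl32 (chromosome 13, 14782769 to 14787750), a bacterial counterpart that is cleaved by a mitochondrial protease before assembly, fell most. It was at 63.2, 60.0, 34.1 and 33.3 CPM in control cultures 1 to 4 and at 16.03, 13.6, 14.3 and 14.5 CPM in the control tumors. All tumors were below all cultures, with a log2 fold change of −1.70 (SE 0.23, edgeR adjusted p = 0.000226).

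Mrps6 was at 135, 129, 146 and 126 CPM in the control cultures on this scale and at 53.9, 44.9, 44.2 and 44.9 CPM in the control tumors, which is −1.51 on the log2 scale (SE 0.11, edgeR adjusted p = 5.2e-06). It had the smallest p of the members, and the 4 cultures were close to each other. Mrps10 was at 126, 124, 55.7 and 54.5 CPM in the cultures and at 29.9 to 35.3 CPM in the tumors (log2 fold change −1.47, edgeR adjusted p = 0.0022). It corresponds to bacterial S10, and its cultures again stood at 2 levels. Mrps30, the large-subunit protein mentioned above, was at 65.0, 57.2, 44.4 and 41.5 CPM in the cultures and at 18.9 to 20.03 CPM in the tumors, without overlap. Mrpl53 was the single member above 0 (0.29, edgeR adjusted p = 0.334), at 1.05 CPM in cells and 1.28 CPM in tumors.

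Across the related lists, 78 of 79 cytosolic ribosomal proteins were called lower (median −0.89), and so were 31 of 37 complex I subunits (median −0.69), 4 of 5 subunits with other names (−1.01), 16 of 25 assembly factors (−0.53), 8 of 16 translation factors (−0.42) and 12 of 22 genes of aminoacyl-tRNA synthesis (−0.37). Called higher were 2 assembly factors and 11 of the 13 mtDNA-encoded mRNAs (median 1.09). Lower levels were thus shared by cytosolic ribosomal protein and complex I genes, with the mtDNA-encoded mRNAs on the other side of 0.

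The cultures themselves fell into pairs by number. The edit went with log2 fold changes of −0.56 to 0.13 over the members, whereas in control cells the difference of cultures 3 and 4 minus cultures 1 and 2 ran from −1.87 to 1.59 on the log2 CPM scale. Both cultures 3 and 4 lay above both cultures 1 and 2 in 37 members (47.4%, against 38.6% of all genes) and below in 21 (26.9%, against 38.1%), and in m.11,944 60% cells the counts were 33 (42.3%, against 38.1%) and 27 (34.6%, against 38.8%). These are descriptions of 2 cultures against 2, with no test. The cytosolic ribosomal proteins differed from this mixed pattern, with 76 of 79 lower in cultures 3 and 4 of control cells and 77 of 79 in m.11,944 60% cells.

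Mrpl24, the counterpart of bacterial L24, was at the low end. Control cultures 1 to 4 held 117, 115, 28.1 and 35.7 CPM and m.11,944 60% cultures 83.7, 88.8, 31.7 and 32.2 CPM, so that cultures 3 and 4 stood far below 1 and 2 in both lines. Mrpl18, which corresponds to bacterial L18, was at the high end, with 29.0, 29.6, 103 and 75.5 CPM in control cells and 30.2, 33.1, 85.4 and 80.4 CPM in m.11,944 60% cells. Mrps25, a small-subunit protein without a bacterial counterpart, followed the same direction with 15.2, 14.6, 46.0 and 33.4 CPM in control cells. Mrpl24, Mrpl18 and Mrps25 were chosen after their values were seen. Exons of Mrpl24 overlap Mettl25b over 52.1% of their bases, and those of Mrpl18 overlap Tcp1 over 22.5%. Mettl25b was at 8.46 ± 0.970 and 8.95 ± 0.675 CPM in the edited and control cells, well below Mrpl24.

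**Figure D5:**
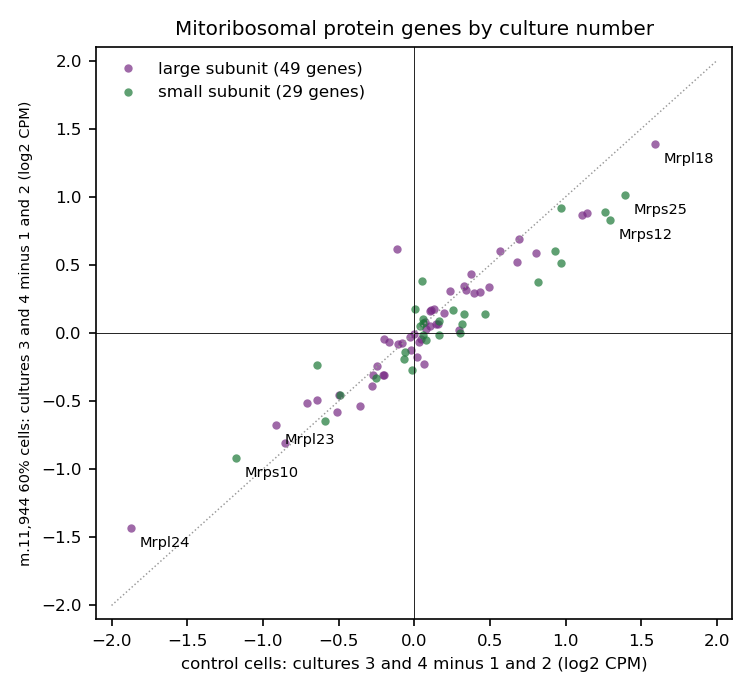
Difference of cultures 3 and 4 minus cultures 1 and 2 (log2 CPM) for each member in control cells (x axis) and m.11,944 60% cells (y axis), coloured by subunit, with the line of equal values dotted. The genes lie along the diagonal from Mrpl24 (−1.87 and −1.43) to Mrpl18 (1.59 and 1.39), on both sides of 0.

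The division bore on the comparison of tumors with cells. Against control cultures 1 and 2 alone, 65 members were called lower in control tumors and 7 higher, and against cultures 3 and 4 alone 75 were lower and 2 higher, with edgeR's test on 4 tumors and 2 cultures. Over all genes, 33.6% were called lower and 43.9% higher with cultures 1 and 2, and 31.8% lower and 40.8% higher with cultures 3 and 4. The 7 were Mrps12, Mrpl49, Mrps21, Mrps25, Mrpl51, Mrps11 and Mrpl18, with log2 fold changes of 0.29 to 0.57, and each was called lower against cultures 3 and 4. The 2 were Mrpl24 (0.52) and Mrpl23 (0.46), which were called lower against cultures 1 and 2. Lower with both pairs of cultures were 63 members, and the medians over all 78 were −0.81 and −0.85. The shares of all genes called lower with both pairs, or in opposite directions, were not counted.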

How the data were processed

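RNA was extracted from 8 cell pellets and 18 tumor fragments by the sequencing provider, and per the labels and the study's methods reads were aligned with STAR to GRCm39 and counted per gene with featureCounts. The deposited values are raw read counts, without normalization by the authors. Strand and multimapping settings were not given in the sources used here. Of 47 columns, 21 were not used here, because their names could not be tied to one sample by its labels; other cultures and tumors of the series are therefore not analysed here. The column names of the m.11,944 60% cells give the line number only, which was tied to the labels through the headings of the study's source data, and the "high" and "low" tumors were read as 60% and 40%.

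Cultures, tumors, and control tumors with control cells were scaled by TMM and tested separately with edgeR 4.0.16 (R 4.3.3, filterByExpr, quasi-likelihood F-test, Benjamini-Hochberg adjustment over all genes tested), called at an adjusted p under 0.1 and tested on simulated data. All 3 tumor groups shared one fit. DESeq2 1.42.0, limma 3.58.1 (voom), other filters, groups, covariates and left-out samples were alternatives. The tumor comparisons with control share the same 4 control tumors. Same-numbered cultures of both lines deviated together (r 0.718 to 0.832 over 4 pairs), so blocked values are given. Deviations were taken from each group's mean, which by itself pushes the mean r between different numbers (−0.264) below 0. RPKM used the median length of GENCODE protein-coding transcripts, and sequence and positions came from GRCm39. Total counts of 16475735 to 36173502 per library set the precision.

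Members named were the 3 largest rises and falls among called genes, the 3 highest and lowest by RPKM in control cells, the 3 smallest p where fewer were called, extremes of the role lists, and members sharing exons. From other lists, at most the 2 genes with the smallest p were named. Members and lists were chosen with earlier results of these data known. Where the labels do not say that replicates came from separate cultures or animals, p-values measure the spread between these samples.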

Additional observations from a re-analysis of the deposited data

Results flagged for a closer look

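In 95 groups of 4 to 7 samples, the sample farthest out was set against Dixon's 95% critical value, which chance passes in about 5% of groups, and 8 values passed. Of these, 6 came from m.12,436 40% tumor 2. The 78 genes took 0.323% of its counts, against 0.256% to 0.282% in the other 6 tumors of the group. Mrpl13 was at 102.2 CPM there (others 68.4 to 79.9 CPM), Mrpl38 at 112.7 CPM (others 70.1 to 87.9 CPM) and Mrpl9 at 78.54 CPM (others 63.5 to 68.2 CPM). Mrps25 was at 32.39 CPM (others 21.9 to 25.6 CPM) and Mrps30 at 22.11 CPM (others 18.8 to 20.1 CPM). In m.12,436 40% tumor 7, Mrpl43 was at 33.17 CPM, above 29.3 to 30.9 CPM in the rest. In control tumor 1, Mrps6 was at 59.35 CPM, against 49.3 to 49.6 CPM in the other 3. With a control tumor or m.12,436 40% tumor 2 left out in turn, the log2 fold change of Mrps6 in m.12,436 60% against control tumors was −0.33 to −0.24.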

How the results depend on the processing

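In control tumors against control cells, 7 members were called higher with cultures 1 and 2 only and lower with cultures 3 and 4 only, and 2 the other way. Over the alternatives of all 5 comparisons, 55 counts of called members stayed within 1.5 times the value reported, counts of 0 that stayed 0 included. Another 8 became larger and 8 smaller, and all 8 smaller ones were in m.12,436 60% against control tumors. In m.11,944 60% against control cells, 0 members were called (0.0387% of all genes). DESeq2 called 1 (0.65%), the cells fitted together with the tumors gave 1 (1.3%) and the replicate block 2 (7.11%). Leaving out single cultures gave 0 members and 0 genes in every fit. In m.12,436 60% against control tumors, 2 were called (2.31% of all genes). With DESeq2 there were 6 (6.51%), with only the groups compared in the fit 7 (5.97%), and with DESeq2 size factors 1 (2.15%). With at least 10 counts in every sample it was 1 (2.52%). Called were 0 with no filter (0.757%), at an adjusted p under 0.05 (0.925%), with the leukocyte score (0.123%) or with the replicate block (1.1%). The 5 fits that left out a control tumor or m.12,436 40% tumor 2 called 0 to 10 (0.402% to 6.05%). Over all fits of this comparison, genes called ranged from 20 with the leukocyte score to 1056 with DESeq2. In m.12,436 60% against 40% tumors, DESeq2 called 1 (4.59% of all genes) where edgeR called 0 (1.81%). The median in control tumors against control cells was −0.76, −0.64 with at least 10 counts in every sample and −0.85 with control cultures 3 and 4 only. With single cultures, control tumors or m.12,436 40% tumor 2 left out (no m.12,436 60% tumor was), medians were −0.10 to −0.02 in cells. They were −0.14 to −0.08 at 60%, −0.09 to 0.01 at 40% and −0.81 to −0.74 between tumors and cells. In that last comparison 63 to 70 members were called (58.9% to 67.9% of all genes). The causes were not tested. Tumor numbers did not pair samples (mean r −0.16 to −0.01), so blocked tumor fits share only a number. The split of control cultures by number and the fits without m.12,436 40% tumor 2 were chosen after seeing the data.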
